A study of Homo sapiens with 62 samples.

Results

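A set of 10 genes of the stromal extracellular matrix was followed across human pluripotent stem cells and the organoids made from them: the small leucine-rich proteoglycans DCN, LUM, FMOD, BGN, OGN, ASPN, PRELP, OMD and KERA, together with POSTN. They were chosen by gene symbol, and all 10 were found, each as 1 row among the 37415 gene rows of the expression table. Small leucine-rich proteoglycans are secreted proteins with a horseshoe-shaped core that binds collagen, and most carry sulfated sugar chains. They set the width and spacing of collagen fibrils, and decorin and biglycan also bind growth factors such as TGF-beta. POSTN, periostin, is not a proteoglycan but a secreted protein of the fasciclin family that cross-links collagen, fibronectin and tenascin, and it is made largely by fibroblasts and other mesenchymal cells. Mature epithelial and neural cells make little of most of these proteins, and in bulk RNA fewer cells of a type and less RNA per cell cannot be told apart.

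The 62 libraries came from 31 groups of 2, all of the human embryonic stem cell (hESC) line WIBR3, and each gave a length-scaled relative abundance (TPM) per gene from polyadenylated RNA. WT organoids were cortical (Chip at day 54, PN96 at day 53 and SPIN at day 60), hepatic (Chip at day 17, PN96 at days 17 and 21), lung (PN96, day 20) and nephron (PN96, day 7). NEAT1-/- clone 2, NEAT1-/- clone 1 and their CTR were grown in PN96 as hepatic organoids to day 21, nephron organoids to day 13, cortical organoids to day 19, lung organoids to day 19, and as hESC at day 0. WT hESC with (+PF127, PN96) and without (-PF127, NT96) the block copolymer PF-127 were taken at 0, 1, 4 and 24 h. The titles of the libraries without PF-127 also read PN96, so their format label is unclear. Under NT96, format and PF-127 cannot be told apart. The labels do not say what PN96, Chip, SPIN and NT96 stand for, nor how CTR differs from WT. The knockout rests on 2 clones of 1 line. Whether paired libraries were separate cultures is not stated; p-values then measure only the spread between these libraries, which may be technical. TPM keeps no sequencing depth, so the depth behind a value is not known and no counting error can be attached to it; 16989 to 20396 genes reached 1 TPM per library.

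Some libraries held little of certain markers of their label. The 8 lung libraries held the lung progenitor gene NKX2-1 at 0 to 1.93 TPM and the surfactant gene SFTPC at no more than 0.0899 TPM, while the pluripotency gene NANOG stood at 13.8 to 92.8 TPM. Hepatic libraries expressed AFP (1951 to 29661 TPM) and still held POU5F1 at 3.30 to 103 TPM. Nephron organoids at day 13 had PAX2 at 9.87 to 66.9 TPM, with the podocyte gene NPHS1 at no more than 1.74 TPM. The SPIN cortical libraries stood apart from each other: the second SPIN library held 1536 TPM of TTR, a gene of liver and choroid plexus, against 51.7 TPM in the first.

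The genes lie in small clusters on GRCh38 (positions from GENCODE v29). DCN (chr12:91140484-91183123), LUM (chr12:91102629-91111831) and KERA (chr12:91050491-91057983) sit side by side on the minus strand, with 28.7 kb between LUM and DCN and 44.6 kb between KERA and LUM. OGN (chr9:92383967-92404696), OMD (chr9:92414245-92424461) and ASPN (chr9:92456205-92482506) form a second minus-strand row. FMOD (chr1:203340628-203351758, minus) and PRELP (chr1:203475828-203491352, plus) are 124.1 kb apart. No other protein-coding gene lies in these gaps. BGN (chrX:153494939-153509554, plus) and POSTN (chr13:37562583-37598844, minus) are apart from the rest.

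The 30 bases from 35 to 6 bases before the RefSeq start (GRCh38.p14) are printed for the 4 members with an entry that reach the highest levels, as the ubiquitous BGN can then be set beside the restricted POSTN, FMOD and PRELP. Capitals mark the motif TATAAA. By the GENCODE positions above, the windows of POSTN, FMOD and BGN lie inside the gene, and that of PRELP lies upstream of it. The RefSeq and GENCODE starts thus differ.
POSTN, chr13:37598774-37598803, minus strand: catgtaTATAAAttctgagctctccaaagc
FMOD, chr1:203351128-203351157, minus strand: tggcacaggcacgcacactctcagtagact
PRELP, chr1:203475771-203475800, plus strand: caccccaataggatctggtggaagaaaagt
BGN, chrX:153494945-153494974, plus strand: cagcctttagcctcccgcccgccgcctctg
TATAAA began 29 bases before the start of POSTN, and on the gene's own strand within 50 bases of the start it was found in 2.63% of 35116 RefSeq promoters. The letters are not in the 30 bases shown for FMOD, PRELP and BGN. On either strand of the 250 bases upstream, TATAAA was found for FMOD and POSTN and not for PRELP and BGN. It was in 10.7% of all promoters. Over the 250 bases upstream, the G+C content was 36.4% for POSTN, 51.6% for FMOD, 52.8% for PRELP and 74.0% for BGN, with a median of 58.0% over all promoters. GGGCGG, on either strand, was in the 250 bases of FMOD and BGN and not in those of PRELP and POSTN; 42.6% of all promoters held it. OGN and ASPN also matched the table; DCN, LUM, OMD and KERA had no entry.

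Stem cells made little of these messages apart from BGN. In CTR hESC the 10 genes summed to 7.14 and 10.8 TPM, of which BGN, biglycan, was 6.10 and 9.88 TPM. DCN, LUM and OGN were listed at 0 in both libraries. Over all 22 hESC libraries DCN was listed at 0 in 21 and did not exceed 0.018 TPM, LUM did not exceed 0.348 TPM, and BGN ran from 1.60 over a median of 3.93 to 11.2 TPM. BGN was thus the only member at 1 TPM or more in all 62 libraries.

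Among CTR organoids, the hepatic and nephron types had the most. LUM, lumican, which binds the collagen surface and limits fibril width, was the highest member: 780.3 and 396 TPM in CTR hepatic organoids and 182 and 418 TPM in CTR nephron organoids, against 0 and 0 TPM in CTR hESC. Its mean ranked 182nd and 374th of 37415 genes in those hepatic and nephron organoids. Cortical organoids had 8.61 and 15.1 TPM and lung organoids 2.34 and 0.364 TPM, so both stood far below. DCN, decorin, the best-known member of the family, was at 95.0 and 43.2 TPM in hepatic and 40.7 and 121 TPM in nephron organoids. It stayed under 0.6 TPM in cortical and lung organoids. FMOD, fibromodulin, which shares a collagen site with lumican, was at 219 and 173 TPM in hepatic and 126 and 221 TPM in nephron organoids, against 0.193 and 0.124 TPM in hESC. Lung organoids differed from each other in FMOD, at 5.50 and 0.321 TPM.

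POSTN followed the same 2 organoid types, at 235 and 91.5 TPM in hepatic and 97.1 and 119 TPM in nephron organoids, against 0.751 and 0.586 TPM in hESC; its hepatic and nephron ranges overlapped. PRELP, a member without sugar chains that anchors basement membrane to connective tissue, was lower, at 12.8 and 9.42 TPM in hepatic, 9.68 and 11.02 TPM in nephron, 2.11 and 3.56 TPM in cortical and 6.48 and 0.647 TPM in lung organoids, against 0.102 and 0.196 TPM in hESC. All organoid libraries were above both hESC libraries. BGN, decorin's closest relative, was at 44.9 and 34.3 TPM in hepatic, 57.5 and 80.5 TPM in nephron, 35.3 and 17.4 TPM in lung and 2.33 and 10.4 TPM in cortical organoids. Its order was nephron, hepatic, lung, then cortical organoids and hESC together; hepatic and lung overlapped, and so did cortical organoids and hESC.

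The remaining 4 members stayed low everywhere. OGN, osteoglycin, reached 2.84 TPM at most and 1 TPM or more in 8 of 62 libraries, among them 1.72 and 2.60 TPM in CTR hepatic organoids. ASPN, asporin, an inhibitor of TGF-beta in cartilage, reached 1.93 TPM, in a SPIN cortical library. KERA, keratocan of the cornea, did not exceed 0.648 TPM and was listed at 0 in 52 libraries. OMD, osteomodulin of bone, did not exceed 0.193 TPM and was listed at 0 in 48. These 4 genes therefore supply little to any sum, and OMD and KERA did not pass the filter of 1 TPM in 2 libraries in any of the comparisons that follow; ASPN passed it only among WT cortical organoids.

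**Figure D1:**
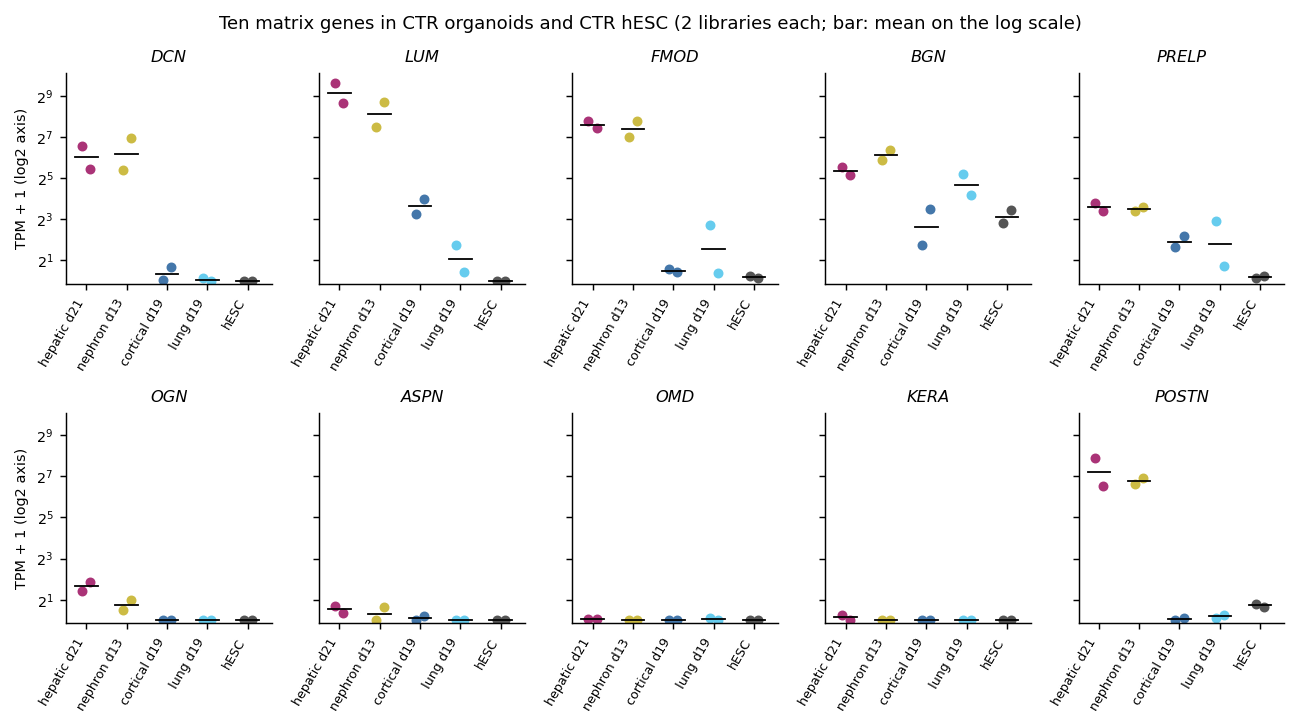
TPM + 1 on a log2 axis for each of the 10 genes in CTR hepatic, nephron, cortical and lung organoids and CTR hESC; points are libraries (2 per group) and bars the mean on the log scale. DCN, LUM, FMOD and POSTN sit high in hepatic and nephron organoids, BGN is present in all 5, and OGN, ASPN, OMD and KERA stay near 0 TPM.

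Against CTR hESC, 7 of the 10 members passed the expression filter in the fit of all 5 CTR cell types, and the test was limma on log2(TPM + 1), adjusted over all genes. All 7 were higher in nephron organoids, where 36.7% of genes tested were called higher, and all 7 in hepatic organoids, where 25.1% were. DCN, FMOD and POSTN passed the filter only with hepatic or nephron libraries, and OGN only with hepatic ones, so these counts are descriptions. In nephron organoids FMOD differed from hESC by 7.18 (SE 0.61, adjusted p = 4.52e-05), POSTN by 6.02 (SE 0.38, adjusted p = 1.19e-05), PRELP by 3.30 (SE 0.59, adjusted p = 0.00188) and BGN by 2.97 (SE 0.55, adjusted p = 0.0022) on that scale. In hepatic organoids the differences were 7.40 for FMOD (adjusted p = 4.7e-05), 6.47 for POSTN (adjusted p = 9.22e-06), 3.39 for PRELP (adjusted p = 0.00198) and 2.20 for BGN (adjusted p = 0.0114). DCN, LUM and OGN also passed in both types, with adjusted p from 8.74e-06 to 0.0255 and no fold given, since hESC were listed at 0. The BGN call in hepatic organoids was lost without the first hESC library (adjusted p = 0.0756) or the first hepatic library (0.0729), and the OGN call in nephron organoids without either hESC library or the second nephron library (adjusted p up to 0.143).

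Cortical organoids had 2 members higher, LUM (adjusted p = 0.000599) and PRELP (1.72, SE 0.59, adjusted p = 0.0363), where 27.0% of genes were called higher; the BGN difference was -0.51 (adjusted p = 0.467). The PRELP call was lost without any 1 of the hESC, cortical, nephron or hepatic libraries (adjusted p up to 0.171). In lung organoids none of the 7 was called by limma, against 20.3% of all genes called higher, and 2 had an unadjusted p under 0.05. Those were BGN at 1.56 (adjusted p = 0.0502) and PRELP at 1.61 (adjusted p = 0.0571). The lung libraries were the ones with little NKX2-1 and SFTPC. The part of this in the result was not tested.

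Among the CTR organoids, the hepatic and nephron types had more of these messages than the cortical and lung types. DCN, FMOD, POSTN and OGN passed the expression filter only with hepatic or nephron libraries, so the counts that include them are descriptions. Hepatic organoids were above cortical organoids in all 7 members tested (28.3% of genes called higher) and nephron organoids in 6 (30.6%), the exception being PRELP at 1.59 (adjusted p = 0.0585). Lung organoids were lower than nephron organoids in 6 (34.3% of genes called lower) and lower than hepatic organoids in 6 (21.8%), with BGN the exception each time, at -1.42 (adjusted p = 0.0582) and -0.64 (adjusted p = 0.389). Between hepatic and nephron organoids OGN was the only member called, 0.90 higher in hepatic (adjusted p = 0.0171), where 12.2% of genes were called higher. OGN reached 1 TPM in the hepatic libraries alone of this fit, so it was tested only because it was high there, and the call was lost with a pseudocount of 0.1 (adjusted p = 0.0706) and without the first nephron library (0.0998). Lung organoids had less LUM than cortical organoids (-2.54, adjusted p = 0.00466, where 23.1% of genes were called lower) and more BGN (2.07, adjusted p = 0.0138, where 23.9% were called higher). The PRELP call was lost in 10 of 16 alternative settings for hepatic against cortical, in 12 of 16 for lung against nephron and in 11 of 16 for lung against hepatic organoids, with adjusted p of up to 0.183, 0.147 and 0.182. The OGN call was lost in 6 of 13 settings for nephron against cortical organoids and in 5 of 13 for lung against nephron organoids (adjusted p up to 0.168 and 0.151), and the BGN call in 2 of 16 for lung against cortical organoids (adjusted p up to 0.0793). Cortical and lung organoids were both taken at day 19; the other types were taken on other days, so in those comparisons type and day cannot be told apart.

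The mixture of messages differed as well as the total. LUM made up 55.0% of the 10 genes' summed mean TPM in CTR hepatic organoids, 40.4% in CTR nephron organoids and 54.0% in CTR cortical organoids, while BGN made up 76.6% in CTR lung organoids and 89.1% in CTR hESC. FMOD was 18.3% in hepatic and 23.4% in nephron organoids, and POSTN 15.3% and 14.5%. The sums were 1389.6 and 750.1 TPM in CTR hepatic, 513 and 972 TPM in CTR nephron, 49.8 and 18.9 TPM in CTR lung and 13.6 and 30.2 TPM in CTR cortical organoids. The hepatic and nephron sums overlapped, and so did the lung and cortical sums.

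Nephron organoids of WT at day 7 had another mixture. BGN was at 157 and 193 TPM, the highest 2 values of the series, and made up 71.2% of the sum, with FMOD at 45.2 and 76.5 TPM. DCN (0.0924 and 0.342 TPM), LUM (1.49 and 1.66 TPM) and POSTN (2.70 and 6.34 TPM) were low. In CTR nephron organoids at day 13 BGN was at 57.5 and 80.5 TPM and LUM at 182 and 418 TPM, so that the biglycan-rich and lumican-rich states do not overlap in either gene. The 2 groups differ in genotype label and in day, and the difference was not tested.

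**Figure D2:**
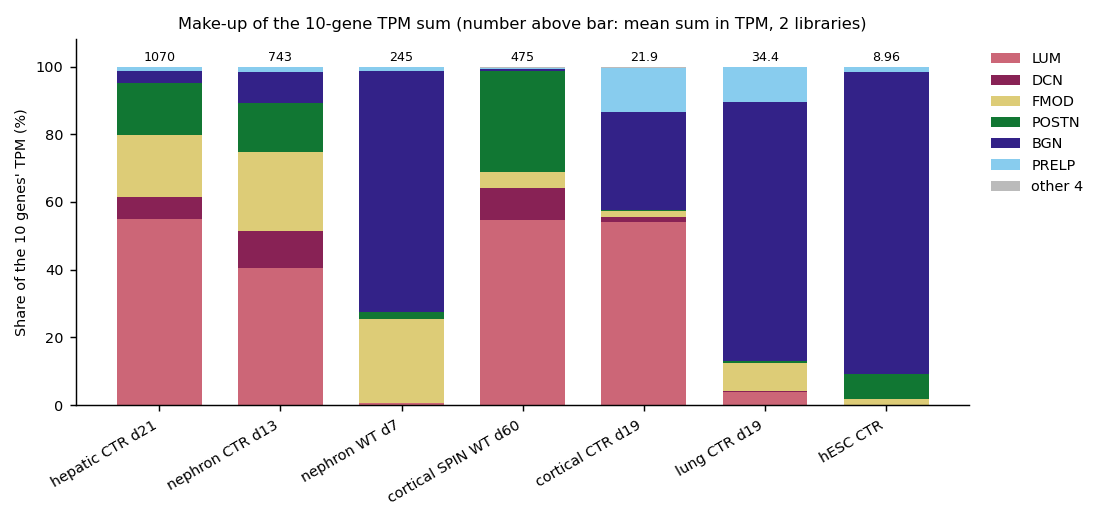
Share of the 10 genes' TPM (%) taken by each gene in 7 groups, with the mean sum in TPM above each bar (2 libraries per group). LUM takes 55.0% in CTR hepatic organoids, and BGN takes 71.2% in WT nephron organoids at day 7 and 89.1% in CTR hESC.

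Fibrillar collagens are what these proteoglycans bind. Of 16 fibrillar collagen partners and their processing enzymes, 13 were higher and 2 lower in nephron organoids than in hESC, with a median of 3.18, and 15 were higher and none lower in hepatic organoids, with a median of 2.38. COL3A1, the collagen of reticular fibers, averaged 2775 ± 632 TPM in nephron organoids and 1909.7 TPM in hepatic organoids, against 0.0217 TPM in hESC (SD, n = 2). LOX, which cross-links collagen, averaged 119.6 TPM in hepatic organoids and 3.04 TPM in hESC. In cortical organoids 3 of the 16 were higher and 6 lower than in hESC, and in lung organoids 2 were higher and 3 lower.

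The counts of the other gene lists are read against the 36.7% of all genes called higher in nephron and 25.1% in hepatic organoids, and some are near those shares. Counts of lower genes, here and for the collagen partners, are given without such a share and are descriptions. Of 10 periostin relatives and matricellular partners, 9 were tested; 5 were higher and 4 lower in nephron organoids (median 0.67), and 4 were higher and 2 lower in hepatic organoids (median 0.63). FN1, fibronectin, averaged 1516 ± 336 TPM in hepatic and 270.4 ± 133 TPM in nephron organoids, against 32.9 TPM in hESC (SD, n = 2). THBS2, a thrombospondin, was lower in nephron organoids by 4.71 on the log2 scale. Of 23 genes that build glycosaminoglycan chains, 22 were tested; 13 were higher and 2 lower in nephron organoids, and 7 were higher and 2 lower in hepatic organoids, with medians of 0.69 and 0.34. Of 15 genes of TGF-beta signalling, 13 were higher in nephron organoids, TGFB2 averaging 76.0 TPM against 0.377 TPM in hESC, and 10 in hepatic organoids. Of the 9 other leucine-rich proteoglycans listed, 6 were tested, with 2 higher and 1 lower in nephron and 4 higher and 1 lower in hepatic organoids; TSKU, tsukushi, averaged 53.5 TPM in nephron organoids and 12.2 TPM in hESC.

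The summed level of a 13-gene mesenchyme list was 303 and 228 TPM in CTR hepatic, 630 and 604 TPM in CTR nephron, 23.7 and 43.2 TPM in CTR cortical and 35.8 and 67.4 TPM in CTR lung organoids, against 156 and 157 TPM in CTR hESC, where THY1 alone gave 149 and 149 TPM. The share of mesenchymal cells in these differences was not tested.

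WT cortical organoids grown as PN96 or Chip had far less of 4 of these messages than those labelled SPIN. LUM was at 2.01 and 2.60 TPM in Chip and 2.19 and 4.35 TPM in PN96, against 147 and 373 TPM in SPIN. Every SPIN library was above every Chip and PN96 library. The PN96 difference from SPIN was -5.83 (SE 0.47, 57.0-fold lower, adjusted p = 0.00036) and the Chip difference -6.16 (71.5-fold lower, adjusted p = 0.000342). DCN was at 1.19 and 0.179 TPM in Chip and 0.241 and 0.577 TPM in PN96, against 5.14 and 84.4 TPM in SPIN. The groups did not overlap, and the second SPIN library was far above the first. The differences from SPIN were -4.03 for PN96 (SE 1.14, adjusted p = 0.0327) and -3.83 for Chip (adjusted p = 0.0433).

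FMOD was listed at 0 in both Chip libraries and was at 0.129 and 0 TPM in PN96, against 6.02 and 38.0 TPM in SPIN (PN96 adjusted p = 0.00832; Chip adjusted p = 0.00915). POSTN was at 0.553 and 0.763 TPM in Chip and 0.0714 and 0.532 TPM in PN96, against 12.8 and 272 TPM in SPIN, with differences of -5.58 for PN96 (SE 1.25, adjusted p = 0.0148) and -5.21 for Chip (adjusted p = 0.0216). These 4 were called of 7 tested in both comparisons, where 17.2% of genes were called lower for PN96 and 12.6% for Chip. FMOD and POSTN passed the expression filter only through the SPIN libraries, where they are high. DCN, PRELP and ASPN could not have passed it without a SPIN library either. Of the 4 called members only LUM could, so this count is a description. BGN, at 3.91 and 1.74 TPM in Chip and 3.41 and 1.90 TPM in PN96 against 1.56 and 2.17 TPM in SPIN, overlapped between all 3 (adjusted p = 0.532 and 0.561). PRELP did not overlap, at 0.349 and 0.643 TPM in Chip and 0.541 and 0.864 TPM in PN96 against 1.37 and 1.58 TPM in SPIN, but did not pass (adjusted p = 0.143 and 0.244). ASPN was at 0.816 and 0.188 TPM in Chip and 0.158 and 1.18 TPM in PN96, against 1.35 and 1.93 TPM in SPIN, and did not pass either (adjusted p = 0.201 and 0.248).

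The SPIN contrast leaned on libraries that were unlike. LUM was 83.7% of the 10-gene sum in the first SPIN library and 48.2% in the second. Without the second SPIN library, SPIN is 1 library assumed to vary like the other groups. In that fit DCN differed by -2.13 for PN96 (adjusted p = 0.0277) and -1.93 for Chip (adjusted p = 0.0414), and LUM by -5.17 (adjusted p = 0.000541) and -5.49 (adjusted p = 0.00054); with either SPIN library left out, FMOD and POSTN did not pass the expression filter. LUM kept its call without any 1 of the 6 libraries; the DCN, FMOD and POSTN calls were lost without 1 or more of the Chip and PN96 libraries, with adjusted p of up to 0.180 for DCN, 0.0540 for FMOD and 0.0949 for POSTN. Beside these genes, the summed liver markers were 1.66 and 3.01 TPM in Chip and 3.58 and 1.89 TPM in PN96, against 87.6 and 1581 TPM in SPIN. Most of the sum in each SPIN library was TTR, which is also a gene of choroid plexus. Endothelial markers summed to 7.52 and 2.32 TPM in Chip and 4.01 and 2.18 TPM in PN96, against 17.1 and 95.3 TPM in SPIN. The mesenchyme list overlapped, at 37.4 and 32.5 TPM in Chip and 51.2 and 47.8 TPM in PN96, against 22.9 and 69.3 TPM in SPIN. The part of these cell types in the result was not tested. SPIN organoids were also taken at day 60, later than the others, so format and day cannot be told apart.

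COL3A1 went the same way as LUM, at a mean of 12.1 TPM in Chip and 6.72 TPM in PN96 against 1217 ± 1398 TPM in SPIN (SD, n = 2). The collagen list as a whole did not: 15 of 16 were tested, with 4 higher and 2 lower in PN96 and 3 higher and 2 lower in Chip. COL6A1, a chain of beaded-filament collagen, averaged 219 TPM in PN96 and 47.5 TPM in SPIN. Of 9 periostin relatives tested, 2 were higher and 3 lower in PN96, FN1 averaging 15.4 TPM against 163 TPM in SPIN; 2 were higher and 7 lower in Chip, SPARC averaging 75.7 TPM against 703 TPM. Of the genes of glycosaminoglycan synthesis, 8 were higher and 3 lower in PN96, CHPF averaging 145 TPM against 17.2 TPM in SPIN. The counts of higher genes in these lists are given without the share of all genes called higher and are descriptions.

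Between Chip and PN96 cortical organoids none of the 7 members was called by limma and none had an unadjusted p under 0.05, where 0.0880% of all genes were called. The interval of the difference was -1.45 to 0.80 for LUM and -0.96 to 1.03 for BGN (95%, log2 scale). No gene of the 5 companion lists was called there.

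**Figure D3:**
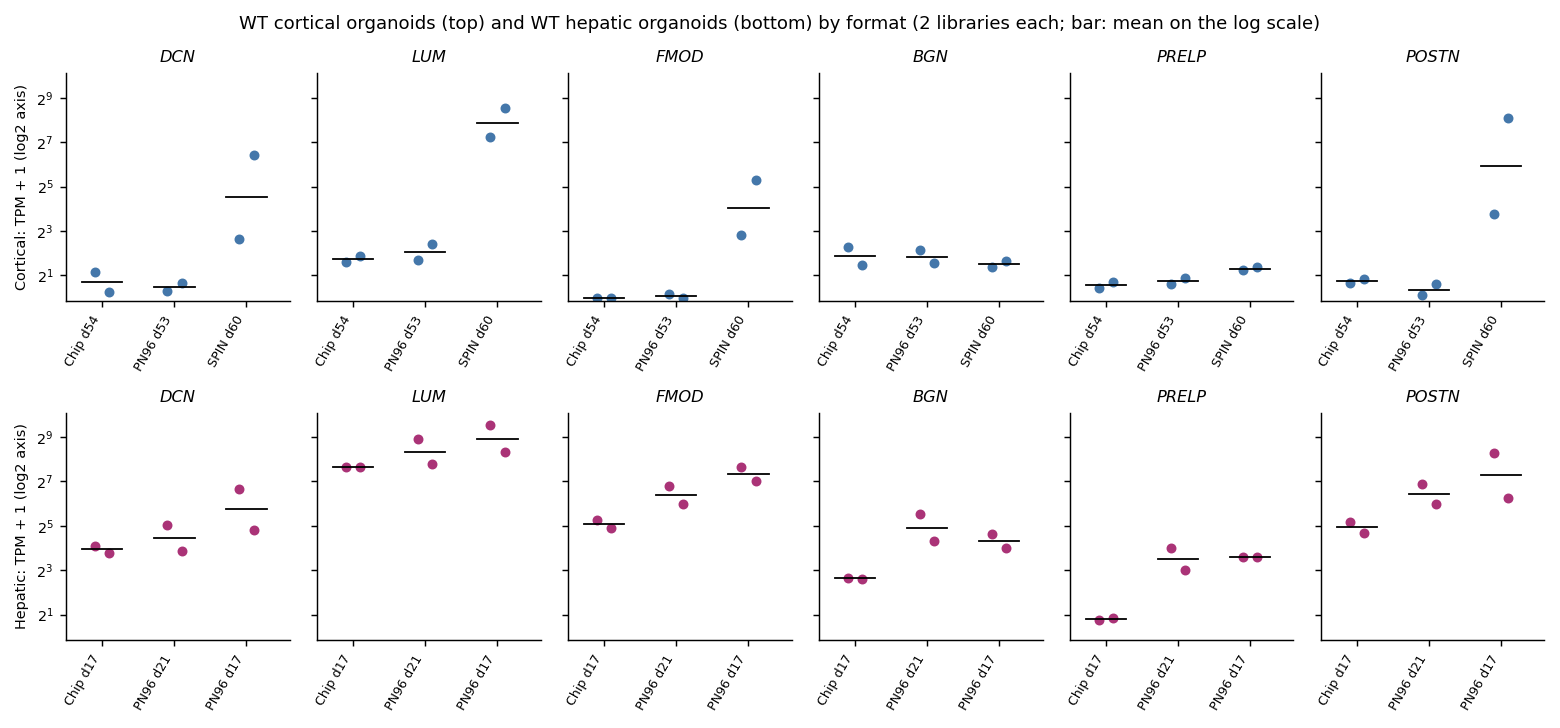
TPM + 1 on a log2 axis for 6 genes in WT cortical organoids (top: Chip day 54, PN96 day 53, SPIN day 60) and WT hepatic organoids (bottom: Chip day 17, PN96 day 21, PN96 day 17); points are libraries, bars the mean on the log scale of 2. LUM is at 147 and 373 TPM in SPIN, above all Chip and PN96 cortical libraries, and PRELP in hepatic Chip is at 0.696 and 0.787 TPM.

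In WT hepatic organoids at day 17 every tested member was lower in Chip than in PN96, and 2 of 7 passed, where 6.66% of genes were called lower. FMOD was at 37.2 and 29.1 TPM in Chip, against 201 and 129 TPM in PN96 (-2.26, SE 0.32, 4.79-fold lower, adjusted p = 0.0255). PRELP was at 0.696 and 0.787 TPM in Chip, against 11.02 and 11.2 TPM in PN96 (-2.80, SE 0.33, 6.95-fold lower on the TPM + 1 scale, adjusted p = 0.0211). The other 5 did not pass after adjustment, though all 7 had an unadjusted p under 0.05 by limma. LUM was at 202 and 197 TPM in Chip, against 739 and 315 TPM in PN96 (adjusted p = 0.144). DCN was at 16.1 and 12.7 TPM in Chip, against 100.2 and 27.2 TPM in PN96 (adjusted p = 0.126). POSTN was at 35.1 and 24.8 TPM in Chip, against 313 and 76.0 TPM in PN96 (adjusted p = 0.0801). In each of these 3 genes the gap in TPM between the PN96 libraries was wider than that from the lower of them to Chip.

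BGN was at 5.29 and 5.13 TPM in Chip, against 23.5 and 15.1 TPM in PN96 (adjusted p = 0.058), and OGN at 0.250 and 0.323 TPM in Chip, against 2.84 and 1.35 TPM in PN96 (adjusted p = 0.0787). The median over the 7 members was -1.80, against -0.22 over all genes; scaling by size factors moved the latter to -0.00, so about 0.22 of each difference is shared by the typical gene. The FMOD and PRELP calls were lost when any 1 of the 4 day 17 libraries was left out, with adjusted p of up to 0.167 for FMOD and 0.156 for PRELP.

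Of 16 fibrillar collagen partners, 6 were lower in Chip and none higher, with a median of -1.21. COL1A1, the main fibrillar collagen, averaged 192 TPM in Chip and 828 ± 383 TPM in PN96 (SD, n = 2), and LOXL2, a collagen cross-linker, 29.7 and 83.5 TPM. Of the 10 periostin relatives and partners, 2 went the other way, CCN1 and CCN2, higher by 1.17 and 1.12. Of 21 tested genes of glycosaminoglycan synthesis 3 were lower, and of 15 TGF-beta genes 1 was lower, TGFB1 averaging 93.7 TPM in Chip and 188 TPM in PN96. Mesenchyme markers summed to 145 and 143 TPM in Chip, against 268 and 215 TPM in PN96, pluripotency markers to 1853 and 1724 TPM, against 1237 and 1481 TPM, and liver markers to 6339.6 and 6701 TPM, against 3153 and 5529 TPM. Their part in the differences was not tested.

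PN96 hepatic organoids at day 21 and at day 17 did not differ in any member by limma, where 0.101% of genes were called and 1 member had an unadjusted p under 0.05. FMOD was at 109 and 61.3 TPM at day 21, against 201 and 129 TPM at day 17 (-0.97, adjusted p = 0.206). BGN was at 44.9 and 19.1 TPM at day 21, against 23.5 and 15.1 TPM at day 17 (0.61, adjusted p = 0.456), so the 2 days overlapped.

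NEAT1, the long noncoding RNA that scaffolds paraspeckles, was targeted in 2 clones. Its level was 0.0207 to 0.590 TPM in nephron clones, against 30.7 and 44.2 TPM in CTR, and 0.142 to 0.566 TPM in hepatic clones, against 39.8 and 44.3 TPM in CTR. In cortical organoids it was 0.0995 to 0.273 TPM in clones, against 5.47 and 8.43 TPM in CTR, in lung organoids 0.192 to 0.869 TPM, against 10.8 and 21.7 TPM, and in hESC 0 to 0.0857 TPM, against 1.78 and 1.95 TPM. All clone libraries were below all CTR libraries of their type. Limma gave an adjusted p of 0.00246 in nephron, 0.00487 in hepatic and 0.0185 in cortical organoids. It did not reach the threshold in lung organoids (0.246) and hESC (0.0578). The authors' deposited tables called NEAT1 lower in both clones there. In lung organoids DESeq2 gave an adjusted p of 1.58e-41 for clone 1 and 6.79e-26 for clone 2. In hESC DESeq2 gave 6.22e-11 for clone 1 and 4.34e-25 for clone 2.

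In nephron organoids 5 of the 6 members tested fell in the knockout, where 5.05% of genes were called lower. FMOD was at 37.3 and 35.3 TPM in clone 2 and 10.5 and 9.31 TPM in clone 1, against 126 and 221 TPM in CTR (-3.06, SE 0.21, 8.36-fold lower, adjusted p = 0.00331). Each clone was below CTR, and clone 1 was below clone 2. PRELP was at 3.13 and 3.24 TPM in clone 2 and 1.83 and 2.01 TPM in clone 1, against 9.68 and 11.02 TPM in CTR (-1.69, SE 0.17, 3.24-fold lower, adjusted p = 0.00632). FMOD, PRELP and DCN showed the same order of clones, though clone 2 against clone 1 gave no call by limma. DCN was at 22.3 and 13.9 TPM in clone 2 and 7.73 and 7.88 TPM in clone 1, against 40.7 and 121 TPM in CTR (-2.48, SE 0.41, 5.57-fold lower, adjusted p = 0.0206). LUM was at 99.3 and 59.8 TPM in clone 2 and 60.0 and 68.5 TPM in clone 1, against 182 and 418 TPM in CTR (-1.96, SE 0.34, 3.88-fold lower, adjusted p = 0.0239). The 2 CTR libraries differed more from each other in DCN and LUM than any pair of clone libraries did.

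POSTN was at 65.8 and 64.8 TPM in clone 2 and 67.0 and 53.7 TPM in clone 1, against 97.1 and 119 TPM in CTR (-0.77, SE 0.12, 1.70-fold lower, adjusted p = 0.0183). Its shift was the smallest of the 5. BGN was the member that did not pass, at 59.5 and 55.3 TPM in clone 2 and 71.4 and 75.3 TPM in clone 1, against 57.5 and 80.5 TPM in CTR, with an interval of -0.39 to 0.26 (95%, adjusted p = 0.797). The median over the 6 tested members was -1.83, against -0.04 over all genes. As means, the 4 clone libraries had 23.1 ± 15.3 TPM of FMOD, against 174 ± 67.2 TPM in the 2 CTR libraries (SD).

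The calls for FMOD and PRELP held without any 1 library; the others did not all hold. Without the second CTR nephron library, LUM stood at -1.36 (adjusted p = 0.0506) and POSTN at -0.62 (adjusted p = 0.0747), leaving 3 calls. The DCN and LUM calls were lost without any 1 of the 4 clone libraries, with adjusted p of 0.0539 to 0.0790 for DCN. That left 3 calls without a clone 1 library (FMOD, PRELP and POSTN) and 2 without a clone 2 library (FMOD and PRELP). With clone 2 alone against CTR, FMOD and PRELP passed. In 1 limma fit of all 62 libraries the POSTN call was lost (adjusted p = 0.446). The authors' deposited tables called POSTN in neither nephron clone (DESeq2, adjusted p = 0.141 for clone 1 and 0.374 for clone 2). In the authors' deposited table for nephron clone 1, DCN was at -3.36 (adjusted p = 0.00366), LUM at -2.21 (adjusted p = 0.0267), FMOD at -4.12 (adjusted p = 0.000545) and PRELP at -2.41 (adjusted p = 9.32e-05), where 6.67% of genes were called lower. In the authors' deposited table for nephron clone 2, PRELP alone of the members was called, at -1.65 (adjusted p = 0.0273, with 2.38% of genes called lower), and FMOD was at -2.22 (adjusted p = 0.199). Clone 2 against clone 1 gave no call by limma, where 0.0435% of genes were called and 2 of 6 members had an unadjusted p under 0.05; FMOD differed by 1.78 (adjusted p = 0.109).

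Of 15 tested collagen partners in the nephron organoids, 10 were lower in the knockout and none higher, with a median of -1.05. COL3A1 averaged 749.9 ± 252 TPM across clones (n = 4), against 2775 ± 632 TPM in CTR (SD, n = 2), a difference of -1.93 (SE 0.15, adjusted p = 0.00376), and COL1A1 averaged 272 and 813 TPM. Of 8 tested periostin relatives and partners 3 were lower, the collagen chaperone SPARC averaging 371 ± 53.1 TPM (n = 4), against 862 ± 185 TPM in CTR (n = 2). Of 15 TGF-beta genes 3 were lower, the growth factor TGFB2 averaging 19.7 TPM across clones, against 76.0 TPM in CTR. None of 21 tested genes of glycosaminoglycan synthesis was called, with a median of -0.04, the median of all genes; nor was any of 3 tested of the other leucine-rich proteoglycans.

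Markers of several cell types also moved in these nephron organoids. Of the 14 mesenchyme genes listed, 13 had a row, 10 were tested and 1 was lower, TCF21, at 2.79 and 2.76 TPM in clone 2 and 1.98 and 1.36 TPM in clone 1, against 6.12 and 9.85 TPM in CTR. The mesenchyme sum was 548 and 513 TPM in clone 2 and 529 and 605 TPM in clone 1, against 630 and 604 TPM in CTR, and so met CTR at its edge. Of 6 endothelial genes 5 were lower, with sums of 94.6 and 73.6 TPM in clone 2 and 46.3 and 37.9 TPM in clone 1, against 221 and 208 TPM in CTR. Of 7 tested smooth muscle genes 3 were lower, with sums of 56.2 and 54.1 TPM in clone 2 and 46.6 and 47.2 TPM in clone 1, against 96.4 and 96.5 TPM in CTR. Of 6 neural crest genes 5 were higher, a count given without the share of all genes called higher. Their sums were 27.8 and 21.3 TPM in clone 2 and 70.5 and 93.6 TPM in clone 1, against 10.4 and 8.94 TPM in CTR. Other sums also lay outside CTR in all 4 clone libraries. Pluripotency markers summed to 314 to 486 TPM in the clones, against 269 and 291 TPM in CTR, and choroid plexus and meninges markers to 1410 to 1780 TPM, against 1060 and 1275 TPM. Cartilage and tendon markers summed to 531 to 639 TPM, against 466 and 496 TPM, lung markers to 54.2 to 172 TPM, against 32.0 and 34.0 TPM, and liver markers to 99.6 to 124 TPM, against 318 and 191 TPM. The part of these cell types in the fall of the matrix genes was not tested.

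**Figure D4:**
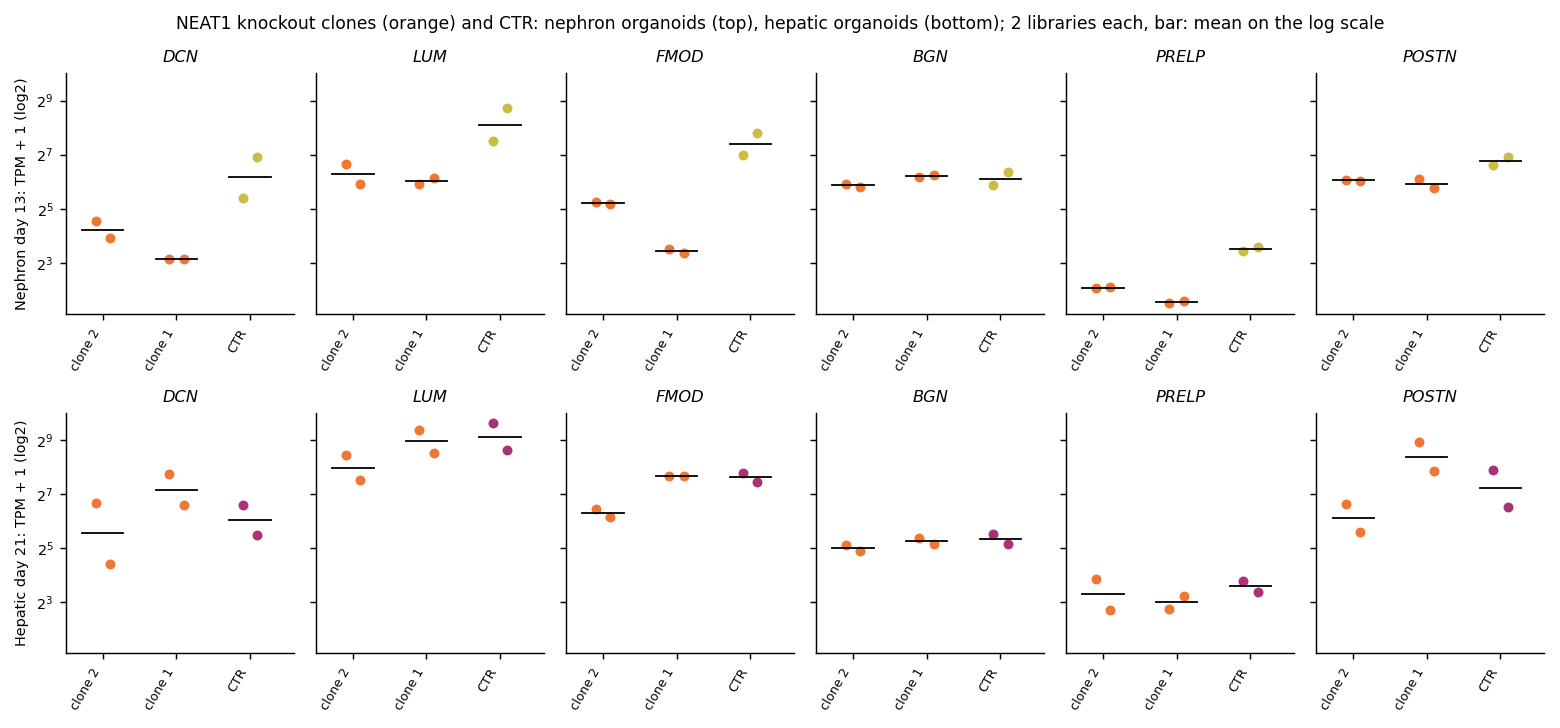
TPM + 1 on a log2 axis for 6 genes in NEAT1-/- clone 2, NEAT1-/- clone 1 and CTR, in nephron organoids at day 13 (top) and hepatic organoids at day 21 (bottom); points are libraries, bars the mean on the log scale of 2. In nephron organoids FMOD and PRELP lie below CTR in both clones while BGN overlaps, and in hepatic organoids no gene passes the test.

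In hepatic organoids none of the 7 tested members was called in the knockout by limma, where 0.00474% of genes were called and 1 member had an unadjusted p under 0.05. FMOD was at 86.3 and 70.8 TPM in clone 2 and 200.3 and 204 TPM in clone 1, against 219 and 173 TPM in CTR (-0.62, adjusted p = 0.347). Clone 2 stood below CTR and clone 1 within it. In the authors' deposited table for hepatic clone 2, FMOD was called, at -1.39 (adjusted p = 0.0148), the only member there, with 1.62% of genes called lower. POSTN was at 97.1 and 47.8 TPM in clone 2 and 482 and 229 TPM in clone 1, against 235 and 91.5 TPM in CTR; the mean of the clones differed from CTR by 0.04. DCN was at 101 and 20.3 TPM in clone 2 and 211 and 94.4 TPM in clone 1, against 95.0 and 43.2 TPM in CTR (0.32). The means of the 2 clones lay on opposite sides of the CTR mean in POSTN, with 1 library of each clone within CTR, and clone 2 against clone 1 gave no call by limma, where 0% of genes were called and 2 of 7 members had an unadjusted p under 0.05 (FMOD -1.36, adjusted p = 0.383; POSTN -2.27, adjusted p = 0.46).

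In the other cell types few members were high enough to test, and none was called by limma or had an unadjusted p under 0.05 for knockout against CTR. In cortical organoids (0.0722% of genes called) 3 were tested: LUM was at 5.91 and 5.38 TPM in clone 2 and 7.45 and 18.7 TPM in clone 1, against 8.61 and 15.1 TPM in CTR (-0.42, adjusted p = 0.86). In lung organoids (0% called) 4 were tested, and BGN was at 26.8 and 33.0 TPM in clone 2 and 43.1 and 36.3 TPM in clone 1, against 35.3 and 17.4 TPM in CTR (0.45, adjusted p = 0.993). The lung limma fit did not call NEAT1 itself (-3.51, adjusted p = 0.246), so the lack of a call says little about the members there. In hESC (0.600% called) only BGN was tested, at 9.13 and 11.2 TPM in clone 2 and 8.25 and 10.2 TPM in clone 1, against 6.10 and 9.88 TPM in CTR (0.28, adjusted p = 0.441). Pooled, the clone libraries overlapped CTR in each of these 3, but clone 2 lay below both CTR libraries in cortical LUM and clone 1 above both in lung BGN.

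The difference of the knockout between organoid types was tested itself. In 1 limma fit over the 4 organoid types, the interaction of knockout and type gave F = 13.8 (adjusted p = 0.0174) for FMOD, where 1.74% of genes were called. For DCN it gave F = 5.75 (adjusted p = 0.134), and the adjusted p was 0.248 for PRELP, 0.318 for LUM, 0.633 for POSTN and 0.767 for BGN. The FMOD call was lost with a pseudocount of 0.1, with clone 2 alone, with the clones pooled as 1 group and without the second CTR nephron library. FMOD was at 0.369 and 0.585 TPM in clone 2 and 0.393 and 0.786 TPM in clone 1, against 0.503 and 0.339 TPM in CTR, in cortical organoids, where with 1 TPM added a fall could hardly show. For the other members, a change that differs between types was not shown.

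BGN was the only member tested in WT hESC with and without PF-127, and it was not called at any time. It was at 3.87 and 4.08 TPM with PF-127, against 4.57 and 5.48 TPM without, at 0 h; 4.00 and 4.01 TPM, against 3.10 and 3.33 TPM, at 1 h; 3.35 and 1.60 TPM, against 2.59 and 2.51 TPM, at 4 h; and 2.50 and 1.87 TPM, against 1.83 and 1.99 TPM, at 24 h. The groups did not overlap at 0 h, where BGN was lower with PF-127, or at 1 h, where it was higher, and overlapped at 4 h and 24 h. No time point was called by limma, where 0%, 0%, 0.213% and 1.23% of genes were called at 0, 1, 4 and 24 h, nor had BGN an unadjusted p under 0.05. The average difference over the 4 times had an interval of -0.21 to 0.22 (adjusted p = 0.991, with 0.207% of genes called).

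Across the 31 group means of log2(TPM + 1), BGN ran least closely with the other members. These correlations are descriptions: the groups share a line and in part a day and a format. DCN ran with LUM at r = 0.958, with FMOD at 0.917 and with POSTN at 0.974. Over the 10 hepatic and nephron groups alone, DCN and LUM stood at 0.927 and DCN and POSTN at 0.940, while FMOD stood at 0.639 with DCN, 0.487 with LUM and 0.503 with POSTN. BGN ran with DCN at 0.482 and with FMOD at 0.708 over all 31 groups, and over those 10 groups at -0.410 with DCN, -0.633 with LUM and -0.0649 with FMOD.

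Of 15352 genes compared over the 31 group means, those most like DCN were BNC1 (r = 0.980), HAND2 (0.974), NPNT (0.967), AKR1B15 (0.966) and HAND2-AS1 (0.965). Among the genes most like POSTN were COL3A1 (0.975), HAND2 (0.964), BNC1 (0.964) and SVEP1 (0.964). LUM was closest to RGS4 (0.954), AQP1 (0.952), LIFR (0.952), GASK1B (0.951) and FAM89A (0.949). FMOD was closest to FOXF1 (0.964), CCN4 (0.961), NID2 (0.958), HAND1 (0.958) and TBX3 (0.956). BGN had other partners, FOXD1 (0.938), ADGRE5 (0.933), FOXD1-AS1 (0.921), HOXB8 (0.920) and HOXB3 (0.917). PRELP had the lowest values, with TIMP1 (0.910), MYRF (0.907), TEAD1 (0.906), KDELR1 (0.905) and ADAMTS6 (0.904).

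Library pairs of the same group often differed in the same direction for several members. In the 10 groups with mean DCN of 5 TPM or more, the library with more DCN also had more LUM in 10, more BGN in 10, more POSTN in 9, more of the summed collagen genes in 9, more FMOD in 8 and more PRELP in 6. The mesenchyme, smooth muscle, and cartilage and tendon markers each followed DCN in 8 of the 10, and genes of glycosaminoglycan synthesis in 7. Liver and pluripotency markers did so in 4 each, and cartilage and bone markers in 2. The share of all genes that follow DCN was not computed. Some differences were small: in WT hepatic Chip, LUM differed by 0.033 and BGN by 0.037 on the log2 scale. In all 6 hepatic groups the library numbered 1 was the higher for DCN, LUM, BGN, POSTN and the collagen sum. In DCN the widest pair was SPIN, at 5.14 and 84.4 TPM, and the closest was nephron clone 1, at 7.73 and 7.88 TPM. A low or high library thus moved several members at once.

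**Figure D5:**
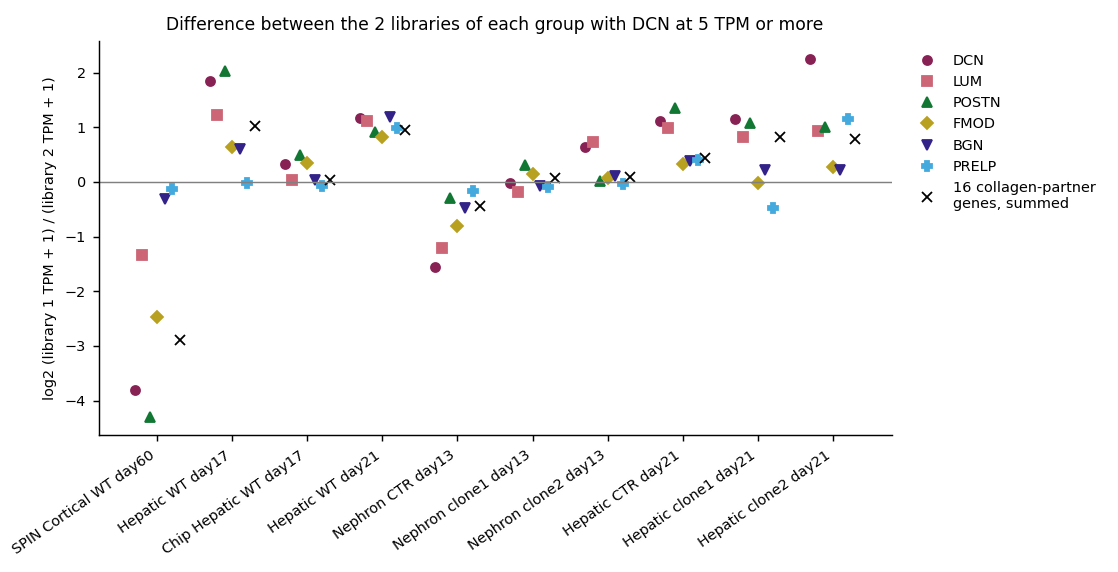
log2 of (library 1 TPM + 1) over (library 2 TPM + 1) in the 10 groups with mean DCN of 5 TPM or more, for 6 genes and for 16 collagen-partner genes summed. Points of a group tend to lie on the same side of 0. In DCN the widest pair is SPIN, at 5.14 and 84.4 TPM, where PRELP, at 1.37 and 1.58 TPM, is near 0 on this axis.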

How the data were processed

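Polyadenylated RNA of 62 libraries of WIBR3 cells was sequenced, 2 libraries in each of 31 groups. Per the submitters' processing notes, the tools were FastQC 0.11.9, Trim Galore 0.6.7, cutadapt 4.1, STAR 2.7.10a, Subread, featureCounts 2.0.1, DESeq2 1.36.0 and R 4.2.0, with genome build hg38/GRCh38; their settings are not given in the sources used here. The authors deposited TPM per gene, which adds up to the same sum in every library. The authors also deposited 10 DESeq2 tables of a knockout clone against CTR, with log2 fold changes, p-values, adjusted p-values, a Wald score and a base mean signal (a mean of normalized counts).

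The 10 genes were taken by symbol. Members and gene lists were chosen with earlier results of these data known, so no list is independent support. Genes at 1 TPM or more in at least 2 libraries of a comparison were tested with limma 3.58.1 (R 4.3.3) on log2(TPM + 1), with a mean trend, two-sided and with Benjamini-Hochberg adjustment over all genes tested; calls needed an adjusted p under 0.05. Fold changes on this scale understate those of low genes. In the knockout fits each clone was its own group, and the mean of both was set against CTR. The fitting script was tested on simulated data. Every member is described in every comparison where it passed the filter; from each companion list up to 4 called genes with the largest change were eligible to be named. Tables and marker sums were made with Python 3.11.15, pandas 2.3.3 and numpy 2.4.6. Libraries of a group correlated at 0.969 to 0.993 over genes, and no 2 were identical. The closing section gives the alternatives tried: a pseudocount of 0.1, no filter or one of 5 TPM, size factors, a replicate block, 1 fit of all libraries, single or pooled clones, and each library left out. A marker gene and a gene among those most like POSTN are not reported here.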

Additional observations from a re-analysis of the deposited data

Results flagged for a closer look

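FMOD passed the test of whether the NEAT1 knockout difference varies among the 4 organoid types (limma interaction, adjusted p = 0.0174), but not with a pseudocount of 0.1, with clone 2 alone, with the clones pooled or without the second CTR nephron library. FMOD was at 37.3 and 35.3 TPM in clone 2 and 10.5 and 9.31 TPM in clone 1, against 126 and 221 TPM in CTR, in nephron organoids. In hepatic organoids it was at 86.3 and 70.8 TPM in clone 2 and 200.3 and 204 TPM in clone 1, against 219 and 173 TPM in CTR. In lung organoids it was at 1.13 and 2.61 TPM in clone 2 and 4.71 and 3.19 TPM in clone 1, against 5.50 and 0.321 TPM in CTR. In cortical organoids it was at 0.369 and 0.585 TPM in clone 2 and 0.393 and 0.786 TPM in clone 1, against 0.503 and 0.339 TPM in CTR, so low that the 1 TPM added before the log leaves little room for a difference.

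BGN averaged 174.6 TPM in WT nephron organoids at day 7, a group in no comparison here. Its libraries, at 157 and 193 TPM, were above every CTR library of the series, of which the highest was a nephron library at 80.5 TPM.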

How the results depend on the processing

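No member call changed its direction under any alternative run. Calls of members against hESC numbered 16 (13 to 20 with a library left out) and those between organoid types 28 (20 to 29). The 8 calls against SPIN fell to 4 to 5 with a library left out; without a SPIN library FMOD and POSTN had no value, since they no longer passed the filter. The 2 hepatic Chip calls ranged from 0 to 3 with a library left out, and were 1 with no filter (PRELP) and 5 with all 62 libraries in 1 fit (FMOD, BGN, OGN, PRELP, POSTN). The 5 knockout calls ranged from 2 to 5 with a library left out, and were 3 with no filter (FMOD, PRELP, POSTN) and 2 with clone 2 alone (FMOD, PRELP). Clone 2 against clone 1 went from 0 calls to 1 with all 62 libraries in 1 fit (POSTN, hepatic), and ranged from 0 to 1 with a library left out (FMOD, nephron). The 1 interaction call (FMOD) became 0 with a pseudocount of 0.1, with clone 2 alone and with the clones pooled, 2 with all 62 libraries in 1 fit (PRELP added), and 0 to 2 with a library left out. The PF-127 comparison stayed at 0. The causes were not tested.

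Replicate numbers did not establish a pairing: among CTR groups the deviations of libraries with the same number correlated at -0.0826 to 0.0348, and among WT hepatic groups at -0.0312 to 0.161. The hepatic CTR and knockout groups stood at 0.0787 to 0.225 and the lung ones at -0.115 to 0.374, each group having only 2 numbers. With the replicate number as a block, the hepatic format calls numbered 5 (DCN, FMOD, BGN, PRELP, POSTN), and no other count moved beyond 1.5 times. Among the knockout calls in nephron organoids, FMOD and PRELP passed in all 15 settings run; DCN, LUM and POSTN were lost in 6, 7 and 5 of them. Size factors moved the median of all genes from 0.37 to 0.07 for nephron organoids against hESC, and turned the uncalled DCN difference between hepatic and nephron organoids from -0.13 to positive. Depth is unknown, so low TPM cannot be given a counting error.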
